A study of Drosophila melanogaster with 4 samples.

Results

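The proteasome subunit genes of Drosophila melanogaster are described here in larval heads that carried a glial tumour model. Members were the protein-coding genes whose symbol in the authors' table starts with Prosalpha, Prosbeta, Rpn or Rpt. The rule used names and no measured value, and it took 34 of the 11880 listed genes. They were the 7 subunits of the alpha ring, the 7 subunits of the beta ring, the 6 ATPases of the base (Rpt1 to Rpt6), 4 other base subunits (Rpn1, Rpn2, Rpn10 and Rpn13), 8 lid subunits (Rpn3, Rpn5 to Rpn9, Rpn11 and Rpn12) and the duplicate copies Rpt3R and Rpt6R. All 34 had at least 92 counts in every library, so each had a value in every comparison. The fly annotation names 48 such genes. Of the other 14, 13 are duplicate copies that the table does not list, and a gene without a count in some library is never listed. The remaining one, a copy of Prosalpha1, is listed under a clone number.

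The proteasome degrades proteins that carry ubiquitin chains. Its core particle is a stack of alpha rings, which gate the entrance, and beta rings, which hold the proteolytic sites. The regulatory particle consists of a base, whose ATPases unfold the substrate and thread it into the core, and a lid, which removes the ubiquitin. The subunits are needed in fixed proportion, and cells transcribe their genes together, in flies with a part for the transcription factor cnc. Many duplicate copies of fly subunits are known from the testis.

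The series holds 4 groups of larvae with 1 poly-A RNA library of larval heads each, all labelled as 1 batch. Control larvae carried tub>Gal80[ts] together with repo>Gal4 and UAS-myrRFP, so that the glial driver repo-Gal4, held back by Gal80[ts], makes a red fluorescent membrane protein. Glioma larvae carried the same elements with UAS-dEGFR[L] and UAS-dp110[CAAX], which encode a form of the EGF receptor and a membrane-bound PI3K subunit. The remaining groups carried all of these and either UAS-Ca-alpha1T-RNAi, against a T-type calcium channel, or UAS-Slo-RNAi, against a calcium-activated potassium channel. Eggs were laid for 3 days at 25 °C, larvae then spent 5 days at 29 °C, where the repressor Gal80[ts] is inactive, and no group received any other treatment. The constructs act in glia, whereas the RNA came from whole heads, and the number of larvae behind each library was not given in the sources used here.

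Total counts ranged from 31594447 to 38826243. Egfr was higher in Glioma than in Control by 2.30 on the log2 scale, and repo by 1.13. The targets of the RNAi constructs were little lower than in Glioma. For Ca-alpha1T, Control had 506 counts, Glioma 673, the library labelled Ca-alpha1T-RNAi 578 and the library labelled slo-RNAi 536, a log2 ratio of −0.20 for the labelled library against Glioma that turned positive when libraries were scaled by total counts. The gene slo had 902, 1208, 1154 and 753 counts in the same order, a log2 ratio of −0.45 against Glioma in its own library. These counts of whole heads leave the labels of both RNAi libraries without a firm check. All 9 glial and all 8 neuronal markers were listed. All markers of muscle, salivary gland, fat body and gut were listed too, so listing is no check of the tissue. The glial markers summed to 1017 CPM in Control, 1304 in Glioma, 1073 in the Ca-alpha1T-RNAi library and 1077 in the slo-RNAi library. The neuronal markers summed to 489, 314, 433 and 458 CPM in that order. Summed markers of other tissues differed between the libraries. All 14 muscle markers were listed, and they summed to 18748 CPM in Control, 62270 in Glioma, 24836 in the Ca-alpha1T-RNAi library and 38399 in the slo-RNAi library. The 10 salivary gland markers summed to 25645, 2736, 2179 and 14808 CPM in that order, and the 8 neuroblast markers to 765, 343, 677 and 563 CPM. The salivary gland genes did not move together, since 3 of 10 lay above 0 in Glioma against Control. The 8 fat body markers summed to 17232, 9470, 14905 and 22779 CPM, and the 7 gut markers to 592, 2906, 370.0 and 3456 CPM. In such bulk samples, fewer cells of a type and less RNA per cell cannot be told apart.

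Within each library, transcripts of the 32 subunits without a duplicate suffix lay in a narrow band, and Rpt2 stood above it. Levels between genes are given as the authors' TPM, which takes transcript length into account. The median subunit stood at 267 TPM in Control, 172 in Glioma, 247 in the Ca-alpha1T-RNAi library and 171 in the slo-RNAi library. These medians are set by the composition of each library as well as by the genes, so comparisons between libraries below use scaled counts. With Rpt2 left out, the highest subunit was 2.42 times the lowest in Control, 3.16 times in Glioma, 3.19 times in the Ca-alpha1T-RNAi library and 3.46 times in the slo-RNAi library.

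Rpt2, an ATPase of the base that in yeast takes part in opening the gate of the core, was the highest in every library. It stood at 676 TPM in Control, 543 in Glioma, 550.0 in the Ca-alpha1T-RNAi library and 462 in the slo-RNAi library, between 2.22 and 3.15 times the median subunit. Its gene lies at 3R:23929873-23931558 on the minus strand of dm6, and 7.14% of its exonic bases are shared with CG31142 on the other strand. CG31142 had 453 counts or fewer per library, against 18805 or more for Rpt2. After Rpt2, the highest mean TPM over the 4 libraries belonged to Prosbeta5 (348), a catalytic subunit, and Prosalpha2 (346). The lowest belonged to Rpn1 (122) and Rpn2 (127), the large scaffold subunits of the base, and to Rpn3 (150.3) of the lid, which was at 196 TPM in Control, 117 in Glioma, 175 in the Ca-alpha1T-RNAi library and 114 in the slo-RNAi library. The duplicate copies lay far below the band, Rpt3R between 2.76 and 3.40 TPM and Rpt6R between 5.80 and 29.1 TPM.

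**Figure D1:**
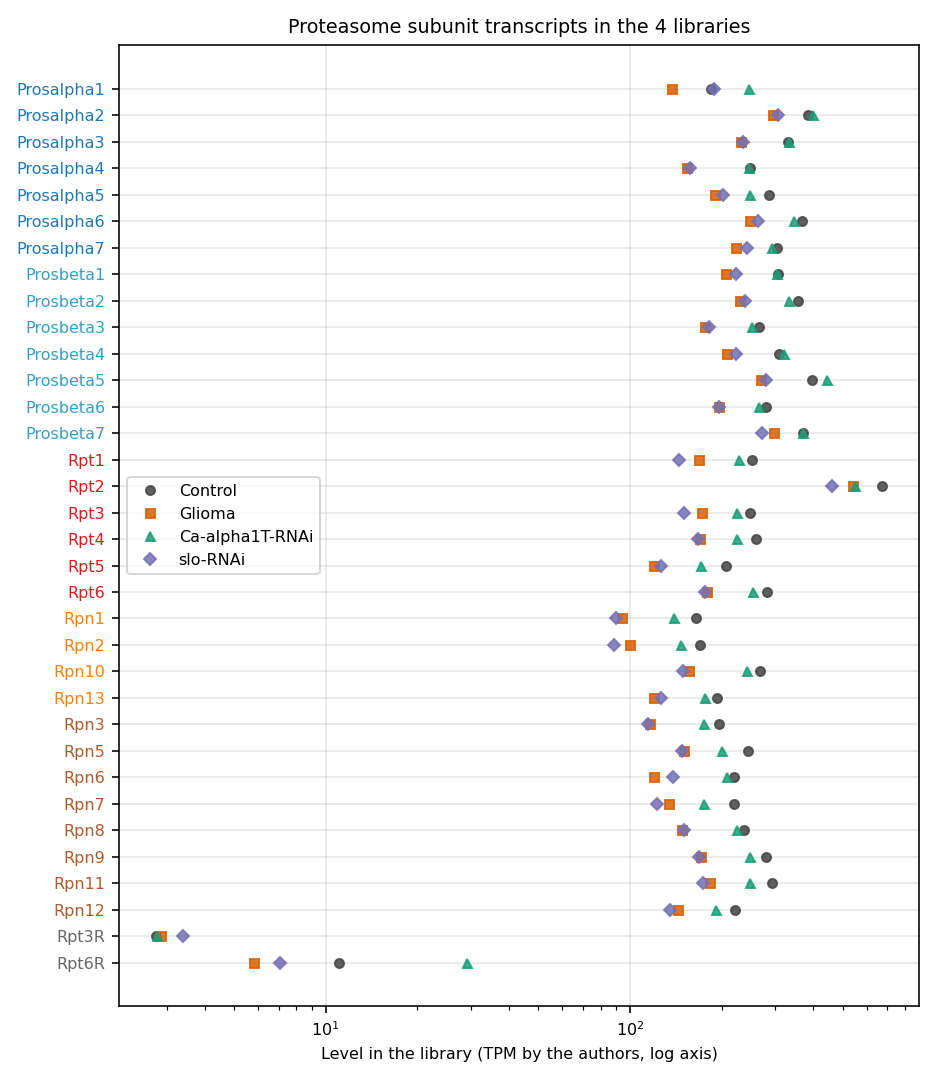
Level of each of the 34 proteasome genes in the 4 libraries, as the authors' TPM on a log axis, with gene names coloured by place in the complex and 1 symbol per library. Rpt2 lies to the right of all others in every library, and Rpt3R and Rpt6R lie far to the left.

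Glioma against Control asks how larval heads differ when glia carry the EGFR and PI3K constructs. Proteasome subunit transcripts were lower in Glioma almost without exception, by a similar and small amount. The median log2 ratio of the 34 genes was −0.30, which is 0.812 of the Control level, while the median of all detected genes was 0.00. With total counts instead of TMM scaling the same medians were −0.53 and −0.22, a shift common to every gene. A ratio below 0 was seen for 32 of 34 genes, and for 49.8% of all 11410 detected genes. The counting interval, the 95% exact interval of the ratio of the 2 counts, lay below 0 for 31 of 34 genes and for 36.7% of all detected genes. None of the 34 reached the rule used to call a difference, which asks for at least 2-fold and an interval that excludes equality, and which 15.9% of detected genes met. The spread was narrow as well. Among the 32 subunits without a duplicate suffix, the log2 ratio had an SD of 0.14 between genes, against 0.91 over all detected genes. The SD was 0.07 for 8 genes of the CCT chaperonin, 0.12 for 8 COP9 genes and 0.15 for 13 eIF3 genes, taken up below. A narrow spread was thus not particular to the proteasome. Each group is a single library, so none of these differences has a replicate check, no test between groups was made, and intervals cover counting error only.

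The alpha ring stood nearest to Control. Its 7 genes had a median log2 ratio of −0.19 and ranged from −0.37 for Prosalpha4 to −0.07 for Prosalpha2. Prosalpha2 was at 261 CPM in Control, 248 in Glioma, 239.9 in the Ca-alpha1T-RNAi library and 239 in the slo-RNAi library. By CPM it varied the least of all members, with its highest library 1.09 times its lowest. This depends on the scaling, since on the authors' TPM it stood at 386, 294, 398 and 306 in the same order.

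The beta ring had a median log2 ratio of −0.25 in Glioma against Control. Its catalytic members were close together, at −0.25 for Prosbeta1 (caspase-like site), −0.32 for Prosbeta2 (trypsin-like site) and −0.24 for Prosbeta5 (chymotrypsin-like site). Prosbeta1 was at 192 CPM in Control, 161 in Glioma, 170.2 in the Ca-alpha1T-RNAi library and 162 in the slo-RNAi library. Prosbeta2 was at 271 CPM, 217, 225 and 210.0 in the same order of libraries. By CPM, Control was highest for both genes and the 3 tumour-model libraries lay close together. This closeness depends on the scaling. On the authors' TPM, Prosbeta1 stood at 306 in Control, 207 in Glioma, 305 in the Ca-alpha1T-RNAi library and 223 in the slo-RNAi library. Prosbeta2 stood at 356, 229, 333 and 239 TPM in that order. Prosbeta5 was at 332, 280.0, 329.7 and 269.6 CPM, so that Control and the Ca-alpha1T-RNAi library were high and the remaining libraries low. On the authors' TPM it stood at 398, 270, 444 and 280, so by that measure its order was near that of Prosbeta1 and Prosbeta2. Prosbeta7, a beta subunit without a proteolytic site, was the exception of the ring. Control had 280.3 CPM of it, Glioma 279.8, the Ca-alpha1T-RNAi library 249 and the slo-RNAi library 237. The log2 ratio of Glioma against Control was −0.00 (95% interval −0.04 to 0.04). This value depends on the scaling, since on the authors' TPM Prosbeta7 stood at 371 in Control and 297 in Glioma.

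The ATPases had a median log2 ratio of −0.27 and an SD of 0.16 between genes, the largest of the 5 structural groups, to which Rpt2 contributes. Rpt5 was lowest at −0.47 (−0.51 to −0.42), with 248 CPM in Control, 179 in Glioma, 182 in the Ca-alpha1T-RNAi library and 174 in the slo-RNAi library. Control had 746.5 CPM of Rpt2, Glioma 746.7, the Ca-alpha1T-RNAi library 541 and the slo-RNAi library 626, with a ratio of 0.00 (−0.02 to 0.02) in Glioma against Control. These ATPases sit in the same ring of the base. Rpt5 was below Control in all 3 tumour-model libraries, whereas Rpt2 was level with Control in Glioma and below it in both RNAi libraries on this scale. With total counts the ratio of Rpt2 in Glioma against Control was −0.23, and on the authors' TPM −0.32.

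The scaffold and ubiquitin receptors of the base were furthest below Control, with a median log2 ratio of −0.45. Rpn1, a scaffold that docks shuttle proteins, was at 368 CPM in Control, 261 in Glioma, 277 in the Ca-alpha1T-RNAi library and 231 in the slo-RNAi library, a log2 ratio of −0.49 (−0.53 to −0.46) in Glioma against Control. Rpn2, the scaffold that holds Rpn13, was at 422, 308, 326 and 253.5 CPM in that order, a ratio of −0.45. The ubiquitin receptor Rpn10 was at 270.2, 197, 215 and 174 CPM, a ratio of −0.46. All 3 genes were highest in Control and lowest in the slo-RNAi library. Rpn13, the other receptor, was at −0.36.

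The 8 lid genes had a median log2 ratio of −0.38 and all lay between −0.56 and −0.31. Rpn6, which in yeast clamps the lid to the core particle, was the lowest of the 32 subunits at −0.56 (−0.61 to −0.52). It was at 296 CPM in Control, 200.1 in Glioma, 249 in the Ca-alpha1T-RNAi library and 215 in the slo-RNAi library, so that Control was highest, Glioma lowest and the remaining libraries between. Its gene lies at 2R:14750166-14752910 on the minus strand of dm6. Rpn11, the deubiquitinase of the lid, was at −0.35 and its partner Rpn8 at −0.36. Sem1, a small lid subunit whose symbol is outside the rule, stood at 4943 counts in Control, 4203 in Glioma, 4357 in the Ca-alpha1T-RNAi library and 3357 in the slo-RNAi library. Its ratio in Glioma against Control was −0.08 (−0.14 to −0.02).

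**Figure D2:**
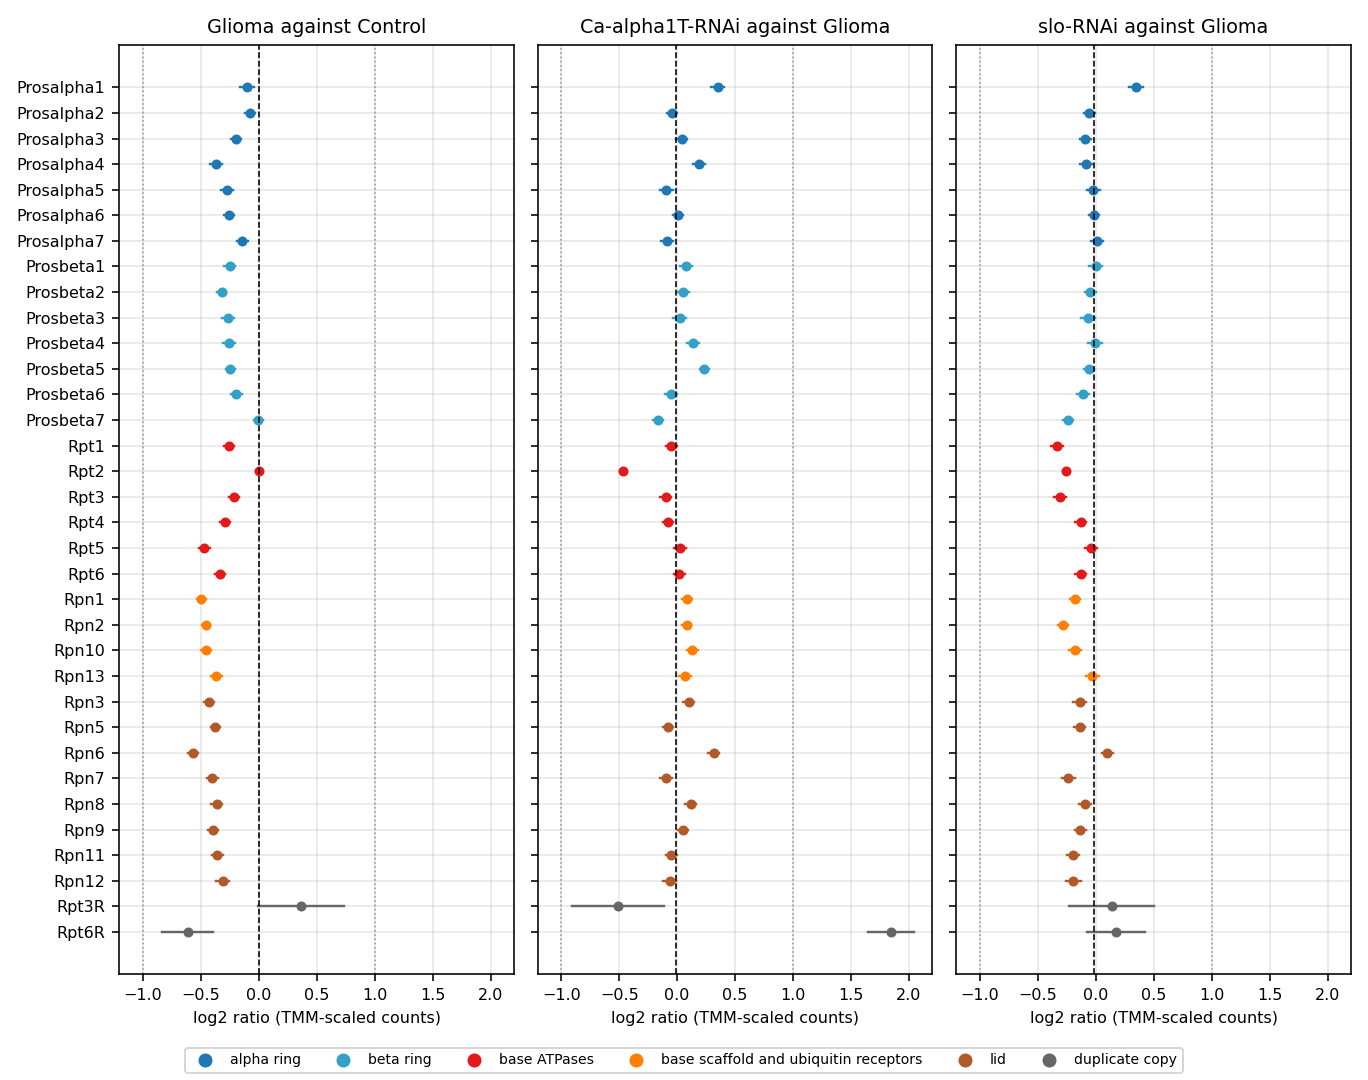
Log2 ratio of each proteasome gene in Glioma against Control and in each RNAi library against Glioma, with its 95% counting interval as a bar. The dashed line is at the median of all detected genes and the dotted lines are at 2-fold. In the left panel 32 of 34 points lie below 0, and Rpt6R in the middle panel is the only point beyond 2-fold.

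Lower ratios were seen on every chromosome arm. The median log2 ratio in Glioma against Control was −0.31 for 4 subunits on 2L, −0.25 for 10 on 2R, −0.32 for 5 on 3L, −0.37 for 9 on 3R and −0.31 for 4 on X. The median of all detected genes on these arms lay between −0.03 and 0.04. Muscle markers were much higher in Glioma in the same comparison, with 14 of 14 above 0, and neuroblast markers were lower, with 8 of 8 below 0. Their part in the proteasome result was not tested.

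Setting the Ca-alpha1T-RNAi library beside Glioma asks what differs when that channel is targeted in the tumour-model glia. The subunits were centred near 0 in this pair, and a few members lay apart from the rest. The median log2 ratio was 0.02, with −0.01 over all detected genes. On the authors' TPM these medians were 0.50 and 0.40, so the zero point depends on the scaling and the nearness of the members to all genes does less. The counting interval lay above 0 for 15 of 34 genes and below 0 for 13, where the shares among all detected genes were 35.1% and 35.4%. Only Rpt6R of the 34 was called, as were 11.8% of detected genes. Muscle markers were lower than in Glioma for 14 of 14 genes, with a median log2 ratio of −1.23. Their part in the proteasome values was not tested.

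Rpn6 and Prosalpha1 were at the upper end. Rpn6 had a log2 ratio of 0.31 (0.27 to 0.36), and Prosbeta5 followed at 0.24 (0.20 to 0.27). Prosalpha1 had one of 0.35 (0.29 to 0.41), and it was at 131 CPM in Control, 122 in Glioma, 156 in the Ca-alpha1T-RNAi library and 155 in the slo-RNAi library. By CPM, Control and Glioma were thus low for Prosalpha1 and both RNAi libraries high, a pattern that no other subunit showed. This pattern depends on the scaling. On the authors' TPM, Prosalpha1 stood at 184 in Control, 138 in Glioma, 245 in the Ca-alpha1T-RNAi library and 189 in the slo-RNAi library. Control was there close to the slo-RNAi library.

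Rpt2 was at the lower end with −0.47 (−0.49 to −0.44), followed by Prosbeta7 with −0.17 (−0.21 to −0.12) and Rpt3 with −0.10. The values for Rpt2 and Prosbeta7 depend on the scaling of the libraries, since the ratio of Rpt2 was −0.19 with total counts and 0.02 on the authors' TPM, and that of Prosbeta7 was 0.11 and 0.32. Rpt3 was at 261 CPM in Control, 226 in Glioma, 211 in the Ca-alpha1T-RNAi library and 183 in the slo-RNAi library. The order of the genes within this comparison does not change with the scaling of counts, and Rpt2 stayed the lowest of the 32 relative to the rest.

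Reads of Prosalpha1 may be counted in part to a near copy, which was not measured. Prosalpha1R, a near copy with 5481 counts in Control, 4724 in Glioma, 5751 in the Ca-alpha1T-RNAi library and 4970 in the slo-RNAi library, lies close by at 2R:7830413-7831771, beside Prosalpha1 at 2R:7827303-7828678. How the counting split reads between them was not given in the sources used here. Summed over both genes, the log2 ratio was −0.08 in Glioma against Control, 0.33 in the Ca-alpha1T-RNAi library against Glioma and 0.32 in the slo-RNAi library against Glioma. The sum thus kept the position of Prosalpha1 apart from the other subunits. On the authors' TPM the sum was 383 in Control, 291 in Glioma, 511 in the Ca-alpha1T-RNAi library and 393 in the slo-RNAi library. A neighbour on the opposite strand, the DNA repair gene phr, shares 17 exonic bases with Prosalpha1. It had 469 counts in Control, 480 in Glioma, 1524 in the Ca-alpha1T-RNAi library and 1297 in the slo-RNAi library, log2 ratios against Glioma of 1.69 and 1.66. Of 11 listed genes within 20 kb of Prosalpha1, phr was the one called higher in the Ca-alpha1T-RNAi library against Glioma, beside 4.93% of all detected genes. The log2 ratios of the others ran from −0.90 for CG30383 to 0.90 for Atg10. The neighbours were looked up after these values were seen, and their part in the result was not tested.

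Rpt6R, the duplicate copy of Rpt6, was the only proteasome gene called in any of the 6 comparisons of libraries. It had 461 counts in Control, 271 in Glioma, 958 in the Ca-alpha1T-RNAi library and 262 in the slo-RNAi library, or 11.7, 7.68, 27.5 and 8.69 CPM. The Ca-alpha1T-RNAi library was the highest by a wide margin, and Control lay above the remaining libraries. The Ca-alpha1T-RNAi library was 3.58-fold higher than Glioma (log2 ratio 1.84, 1.65 to 2.04), 2.35-fold higher than Control (1.23, 1.07 to 1.39) and 3.17-fold higher than the slo-RNAi library (1.66, 1.47 to 1.87). Rpt6, the gene it copies, had 11399 counts in Control, 8124 in Glioma, 8110 in the Ca-alpha1T-RNAi library and 6347 in the slo-RNAi library, and its log2 ratio in the Ca-alpha1T-RNAi library against Glioma was 0.02 (−0.03 to 0.06). By CPM, Rpt6R was thus highest in a library where Rpt6 was level with Glioma. That level depends on the scaling, since on the authors' TPM Rpt6 stood at 179 in Glioma and 254 in the Ca-alpha1T-RNAi library. Even at its highest, Rpt6R stood at 29.1 TPM beside 254 TPM for Rpt6 in the same library.

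Rpt6R lies at 3R:30582198-30583697 on the minus strand of dm6. Of 5 listed genes within 20 kb of it, 2 were also called higher in the Ca-alpha1T-RNAi library against Glioma, beside 4.93% of all detected genes. CG9717 had 327 counts in Control, 367 in Glioma, 995 in the Ca-alpha1T-RNAi library and 326 in the slo-RNAi library, a log2 ratio of 1.46. CG31019 had 36, 132, 315 and 97 counts in that order, a ratio of 1.27. The remaining neighbours CG2246, CG9702 and tmod had ratios of −0.23, −0.13 and −0.07. These neighbours too were looked up after the values of Rpt6R were seen. Of 23 testis and germ line markers, 8 were listed in the table, vas, nos, aly, comr and dj not among them. The 8 summed to 29.9 CPM in Control, 50.8 in Glioma, 43.3 in the Ca-alpha1T-RNAi library and 44.6 in the slo-RNAi library. The highest value of any of them was 11.8 TPM, in the Ca-alpha1T-RNAi library, and their part in the values of Rpt6R was not tested.

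Rpt3R, the copy of Rpt3, did not share this pattern. It had 115 counts in Control, 133 in Glioma, 92 in the Ca-alpha1T-RNAi library and 125 in the slo-RNAi library, beside 10254, 7976, 7334 and 5510 counts of Rpt3. Its log2 ratio in the Ca-alpha1T-RNAi library against Glioma was −0.51 with a wide interval from −0.91 to −0.12. The size of this ratio depends on the scaling, since Rpt3R stood at 2.87 TPM in Glioma and 2.79 in the Ca-alpha1T-RNAi library.

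**Figure D3:**
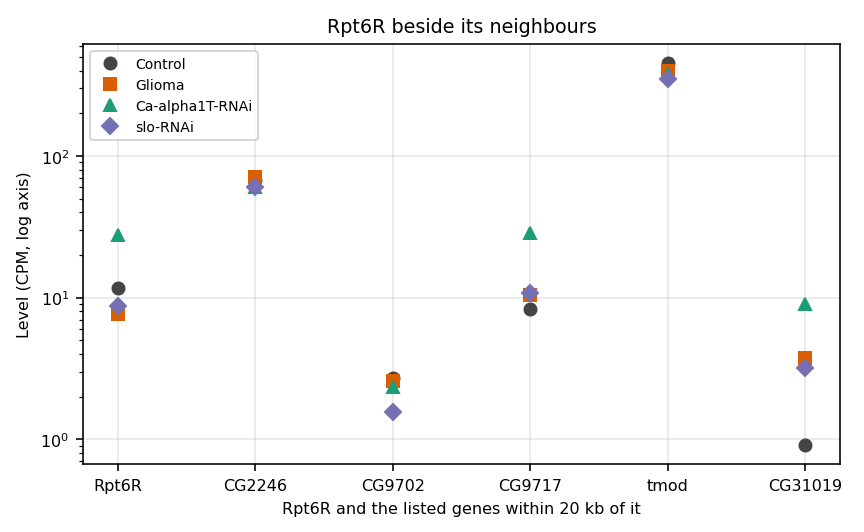
CPM of Rpt6R and of the 5 listed genes within 20 kb of it in the 4 libraries, on a log axis. The Ca-alpha1T-RNAi library lies above the others for Rpt6R, CG9717 and CG31019, and close to them for CG2246 and tmod.

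Setting the slo-RNAi library beside Glioma asks the same of the potassium channel. Subunit transcripts were slightly lower than in Glioma, with a median log2 ratio of −0.09, or 0.940 of the Glioma level, and −0.01 over all detected genes. On the authors' TPM the median was 0.02, and that of all detected genes 0.08. The counting interval lay below 0 for 22 of 34 genes and above 0 for 2, beside 34.2% and 31.5% of all detected genes. None of the 34 was called, beside 11.2% of detected genes. Among the 32 subunits without a duplicate suffix, the lowest were Rpt1 at −0.33 (−0.38 to −0.28), Rpt3 at −0.31 and Rpn2 at −0.28. Rpt1 was at 279.7 CPM in Control, 234 in Glioma, 226 in the Ca-alpha1T-RNAi library and 186 in the slo-RNAi library. The highest of these 32 were Prosalpha1 at 0.35 (0.29 to 0.41), Rpn6 at 0.10 (0.05 to 0.15) and Prosalpha7 at 0.01. Prosalpha7 was at 219 CPM in Control, 199 in Glioma, 187 in the Ca-alpha1T-RNAi library and 200.5 in the slo-RNAi library. Pi3K92E, the gene of the PI3K construct, was itself lower than in Glioma by a log2 ratio of −1.27, and mitochondrial transcripts took 15.5% of counts in the slo-RNAi library beside 7.77% to 10.7% in the others. Their part in the proteasome values was not tested.

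Set against Control, both RNAi libraries were below it, and the slo-RNAi library furthest. These ratios share the Control library with Glioma against Control, so they are given side by side and not as separate evidence. The median log2 ratio of the 34 genes was −0.28 in the Ca-alpha1T-RNAi library and −0.43 in the slo-RNAi library, or 0.823 and 0.744 of the Control level, where all detected genes had medians of −0.02 and −0.01. On the authors' TPM the Ca-alpha1T-RNAi library was nearer to Control, at −0.11, with all detected genes at 0.13. The counting interval lay below 0 for 30 of 34 and 32 of 34 genes, beside 34.3% of all detected genes in each comparison. Rpt6R was called higher in the Ca-alpha1T-RNAi library against Control, where 10.2% of detected genes were called. None of the 34 was called in the slo-RNAi library against Control, where 13.3% were.

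Control was the library of highest CPM for 30 of the 32 subunits without a duplicate suffix, as it was for 28.6% of all detected genes. The slo-RNAi library was the lowest for 26 of 32, and for 21.1% of all detected genes. This order depends on the scaling. By the authors' TPM, the slo-RNAi library was lowest for 15 of 32 and Glioma for 17, and Control was highest for 27. By CPM, Glioma was lowest for Prosalpha1, Prosbeta1 and Rpn6, and the Ca-alpha1T-RNAi library for Prosalpha5, Prosalpha7 and Rpt2. The median log2 ratio of the Ca-alpha1T-RNAi library against the slo-RNAi library was 0.13, with 27 of 34 intervals above 0 beside 31.1% of all detected genes. In that pair Rpt6R was called, as were 10.4% of detected genes.

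The regulatory particle was further below Control than the core particle in each of the 3 tumour-model libraries. In Glioma against Control the median log2 ratio was −0.37 for 18 regulatory genes and −0.25 for 14 core genes, and 16 of 18 regulatory genes lay below the core median. In the Ca-alpha1T-RNAi library against Control the medians were −0.36 and −0.18, and all 18 regulatory genes lay below the core median. In the slo-RNAi library against Control they were −0.51 and −0.28, and 15 of 18 regulatory genes lay below every core gene. The gap between the particles was thus widest in the slo-RNAi library. It was −0.11 in the slo-RNAi library against Glioma and −0.01 in the Ca-alpha1T-RNAi library against Glioma. On the authors' TPM, the median regulatory gene stood at 0.781 of the median core gene in Control, 0.695 in Glioma, 0.692 in the Ca-alpha1T-RNAi library and 0.638 in the slo-RNAi library.

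Transcript length differs between the particles. Exonic length ran from 815 to 1215 bases in the core (median 971) and from 995 to 3412 bases in the regulatory particle (median 1589). Among other genes of the same range of length and at least the same level, the median log2 ratio in Glioma against Control was 0.37 for 136 genes in the range of the core and 0.18 for 470 genes in the range of the regulatory particle. That difference has the same direction as the gap between the particles. In the slo-RNAi library against Glioma the same medians were −0.22 and −0.13, the opposite direction to the gap, and in the Ca-alpha1T-RNAi library against Control both were −0.09. In the slo-RNAi library against Control they were 0.17 and 0.10, again in the direction of the gap. The part of length in the gap was not tested.

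**Figure D4:**
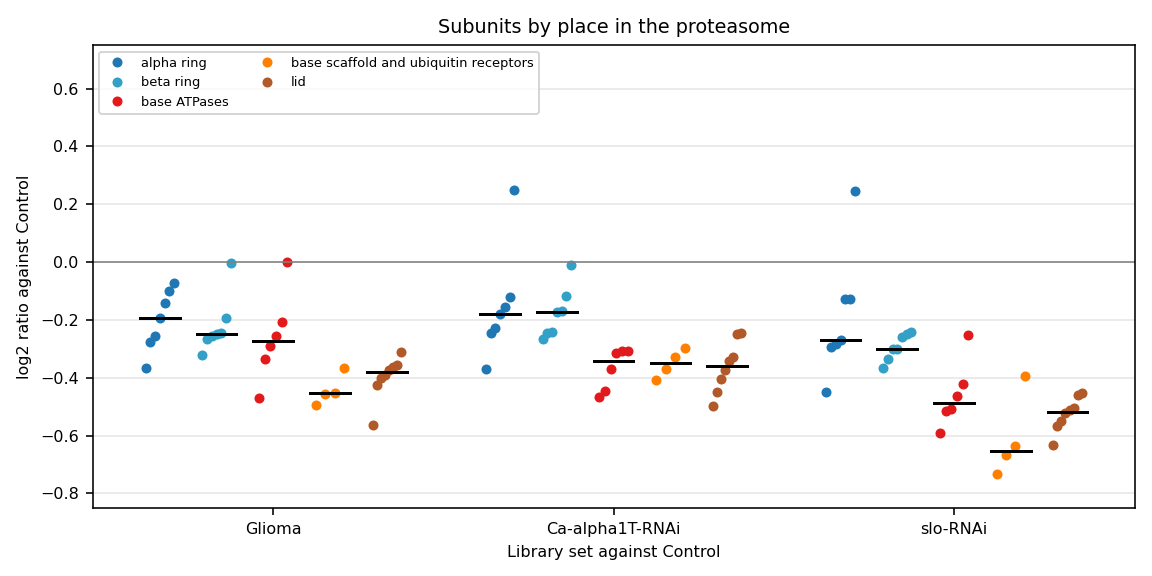
Log2 ratio against Control of the 32 subunits without a duplicate suffix in the 3 other libraries, by place in the complex, with a line at each group's median. In the slo-RNAi library 15 of 18 regulatory particle genes lie below every core gene, with Rpt2, Rpt4 and Rpn13 as the exceptions, and Prosalpha1 is the one point above 0 in both RNAi libraries.

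Several lists of genes that work with the proteasome had medians below 0 in Glioma against Control, as the subunits did. Assembly factors and regulators (10 listed genes, the lid subunit Sem1 among them) had a median log2 ratio of −0.18 in Glioma against Control. It was 0.07 in the Ca-alpha1T-RNAi library against Glioma and 0.04 in the slo-RNAi library against Glioma, and no gene was called. Pomp, the assembly chaperone of the core, had ratios of −0.38, 0.22 and 0.13 in that order. Usp14, a deubiquitinase that docks on Rpn1, had −0.42, 0.10 and 0.04. In Glioma against Control both lay slightly below the subunits' median of −0.30, whereas the median of their list lay above it. The list ran from −0.45 for CG8858 to 0.04 for ntc, with REG, PI31, CG12321 and Txl between −0.19 and −0.08. The 12 E1 and E2 enzymes, which activate and transfer ubiquitin, had medians of −0.25, 0.09 and 0.11 with none called. In Glioma against Control 10 of them lay below 0 and 2 above, the highest at 0.93. Ubc2, an E2 enzyme, had 3825 counts in Control, 2199 in Glioma, 3545 in the Ca-alpha1T-RNAi library and 2755 in the slo-RNAi library, ratios of −0.64, 0.71 and 0.55. The 10 shuttle and segregase genes had medians of −0.24, 0.12 and 0.00 with none called. TER94, the ATPase that extracts ubiquitinated proteins, had −0.45, 0.07 and −0.15, and the shuttle Ubqn −0.29, 0.38 and 0.40.

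The 4 ubiquitin genes divided in Glioma against Control. Ubi-p5E and Ubi-p63E, which encode ubiquitin alone, had log2 ratios of −0.46 and −0.25. RpL40 and RpS27A, which encode ubiquitin fused to a ribosomal protein, had 0.37 and 0.33. The cytoplasmic ribosomal protein genes (87 listed) had medians of 0.34 in Glioma against Control, −0.34 in the Ca-alpha1T-RNAi library against Glioma and −0.11 in the slo-RNAi library against Glioma. With TMM scaling they lay above Control in Glioma, where the proteasome genes lay below it. By the authors' TPM the median ribosomal protein gene stood at 2011 in Control, 2054 in Glioma and 2260 in the Ca-alpha1T-RNAi library. On that measure Glioma was thus close to Control. The sign in the Ca-alpha1T-RNAi library against Glioma also depends on the scaling. The vacuolar proton pump genes (23 listed), which serve lysosomal degradation, had medians of 0.11, −0.08 and 0.13.

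The COP9 signalosome and eIF3 share their subunit architecture with the proteasome lid, and CCT is a ring-shaped chaperonin. The 8 COP9 genes had medians of −0.11, −0.16 and −0.14 in the 3 main comparisons, in the order given above, and the 13 eIF3 genes 0.13, −0.23 and 0.03. The 8 CCT genes had 0.03, −0.30 and −0.28. In Glioma against Control these complexes thus differed from the lid, whose median was −0.38 with TMM scaling. None of their genes was called in these comparisons. The signs depend on the scaling. On the authors' TPM the medians in Glioma against Control were −0.39 for COP9, −0.19 for eIF3 and −0.29 for CCT, beside −0.26 for all detected genes. The lid was lower on TPM as well. Its median gene stood at 229 TPM in Control and 146 in Glioma, beside 61.7 and 48.5 for COP9. In the Ca-alpha1T-RNAi library against Glioma the TPM ratios had medians of 0.29 for COP9, 0.26 for eIF3 and 0.18 for CCT. All detected genes had 0.40. In the Ca-alpha1T-RNAi library against Glioma, the gene furthest from 0 was CSN8 at −0.57 for COP9, eIF3h at −0.37 for eIF3 and CCT8 at −0.43 for CCT. Cullin ligase genes (15 listed) had medians of −0.35, 0.12 and 0.11. Cul6 was called, with 447 counts in Control, 245 in Glioma, 566 in the Ca-alpha1T-RNAi library and 320 in the slo-RNAi library, a ratio of 1.23 in the Ca-alpha1T-RNAi library against Glioma. The 13 anaphase-promoting complex genes had medians of −0.09, −0.04 and 0.03, and APC7 was called higher in Glioma against Control at 27 and 60 counts (log2 ratio 1.29, 0.63 to 2.02).

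The transcription factor cnc, which in flies takes part in the control of proteasome genes, had 10538 counts in Control, 7405 in Glioma, 10595 in the Ca-alpha1T-RNAi library and 6595 in the slo-RNAi library. Its log2 ratio was −0.36 (−0.40 to −0.31) in Glioma against Control, 0.54 (0.50 to 0.58) in the Ca-alpha1T-RNAi library against Glioma and 0.06 in the slo-RNAi library against Glioma. Its transcript was thus high in Control and in the Ca-alpha1T-RNAi library and low in the others. The 9 listed genes of its pathway, cnc included, had medians of 0.16, −0.28 and −0.21 with none called. On the authors' TPM these were −0.15, 0.14 and −0.12, so the first and second changed sign. GstD1, a detoxifying transferase and a known target, had ratios of 0.67, −0.54 and 0.19, the opposite sign to cnc in Glioma against Control and in the Ca-alpha1T-RNAi library against Glioma. The median log2 ratio of the 34 proteasome genes was −0.30 in Glioma against Control and 0.02 in the Ca-alpha1T-RNAi library against Glioma. On the authors' TPM the second of these was 0.50, beside 0.40 for all detected genes. The part of cnc in the proteasome values was not tested.

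**Figure D5:**
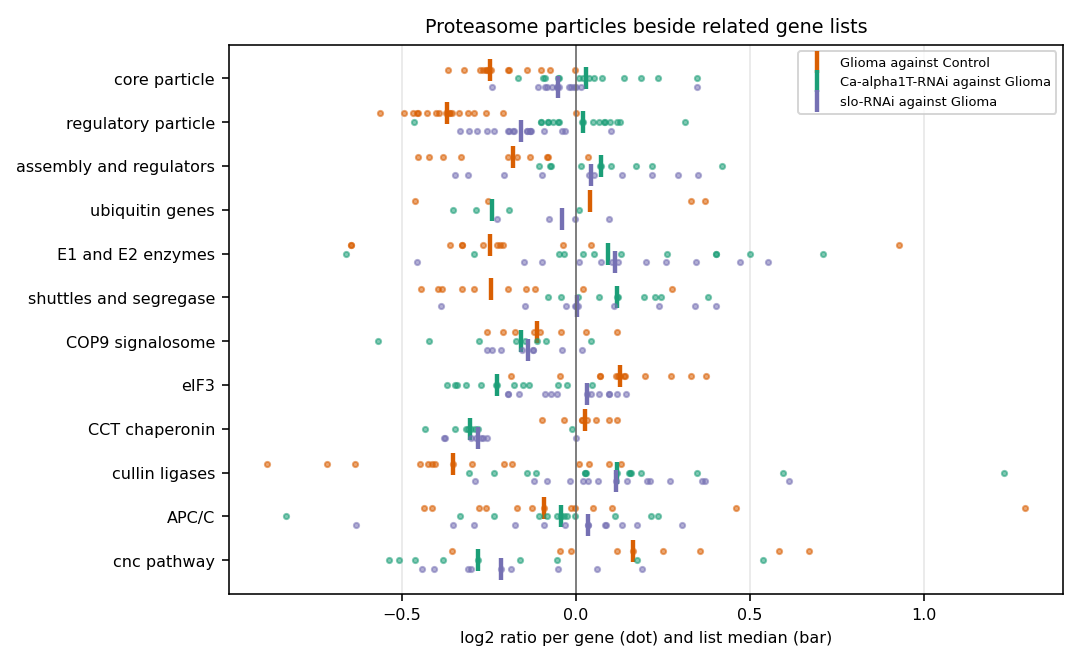
Log2 ratio of each gene (dot) and the median (bar) for the core and regulatory particle and for 10 related gene lists, in the 3 main comparisons. The regulatory particle and the cullin ligases have the lowest medians in Glioma against Control, at −0.37 and −0.35.

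The authors' deposited table holds its own fold changes and adjusted p-values for 5 of these comparisons, and how spread was estimated from 1 library per group was not given in the sources used here. In the authors' deposited table, Rpn6 (−1.47-fold, adjusted p 0.0285) and Rpt6R (−1.52-fold, 0.0364) had an adjusted p under 0.05 in Glioma against Control, as did 29.0% of all genes. For the Ca-alpha1T-RNAi library against Glioma, the authors' deposited table has Rpt6R alone among the 34 (3.60-fold, 7.11e-14), beside 23.0% of all genes. For the slo-RNAi library against Glioma, the authors' deposited table has none of the 34, beside 17.2% of all genes. For the slo-RNAi library against Control, the authors' deposited table has 7 of 34, led by Rpn2 (−1.66-fold, 0.00289) and Rpn1 (−1.59-fold, 0.00775), beside 22.0% of all genes. These genes all belong to the regulatory particle. Their share of the members is near the share among all genes, so nothing about the particle is read from it.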

How the data were processed

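Whole-number read counts, FPKM and TPM per gene were deposited by the authors for 4 libraries, per the file headers, along with their own fold changes (signed), p-values and adjusted p of 5 comparisons. Tools named in the submitters' processing notes are HISAT2 2.1.0, StringTie 2.1.3b, Trimmomatic 0.38, FastQC 0.11.7 and edgeR, with the build dm6. The kit was stranded, per the labels' protocols, but whether counting used strand was not given in the sources used here, and 14 members share exonic bases with another gene (at most 15.7% of a member's). Every listed gene has at least 1 count in each library. Another 8 per-sample columns were not used.

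Counts were scaled with TMM factors (1.06, 0.909, 1.10 and 0.939 for Control, Glioma, Ca-alpha1T-RNAi and slo-RNAi; edgeR 4.0.16, R 4.3.3). CPM uses the scaled library sizes, and log2 ratios a prior count of 0.5. Intervals are exact conditional binomial at 95% (scipy 1.17.1), and cover counting error only, as PCR duplicates are not separate molecules. Detected genes have at least 10 counts in 1 or both libraries, and a call needs at least 2-fold and an interval excluding equality. The calling code was tested on simulated data. Alternatives were DESeq2 1.42.0 size factors, total counts, other filters, folds and prior counts, FPKM and TPM. Values are given for called members, the 3 highest and 3 lowest subunits of each main comparison and by mean TPM, the catalytic subunits and the copies. Of each pathway list, called genes or some of those furthest from 0 are named. Genomic neighbours were added after values were seen. Members and lists were chosen with earlier results of these data known. Positions are from the Ensembl annotation of the dm6 assembly, and no promoter sequence was used here.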

Additional observations from a re-analysis of the deposited data

How the results depend on the processing

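The scaling of the libraries sets the zero point of the member medians. With total counts the median log2 ratio of the 34 genes was −0.53 in Glioma against Control, 0.30 in the Ca-alpha1T-RNAi library against Glioma, −0.61 in the slo-RNAi library against Control and 0.36 in the Ca-alpha1T-RNAi against the slo-RNAi library. With the authors' FPKM these were −0.54, 0.31, −0.61 and 0.38. With the authors' TPM they were −0.61, 0.50, −0.61 and 0.50, and the slo-RNAi library against Glioma was at 0.020 and the Ca-alpha1T-RNAi library against Control at −0.11. The median of all detected genes moved as well, to −0.22, 0.26, −0.18 and 0.23 with total counts, since a scaling of counts shifts every gene by the same amount. Total counts also moved the share of calls that were higher from 63.5% to 46.3%, from 41.7% to 67.3%, from 55.2% to 41.5% and from 54.4% to 70.6% in these comparisons. At 1.5-fold, 1 member was called in Glioma against Control, 5 in the slo-RNAi library against Control and 2 in the Ca-alpha1T-RNAi against the slo-RNAi library. At 4-fold, and also without the duplicate copies, 0 were called in each comparison of the Ca-alpha1T-RNAi library, since Rpt6R was the only call there. The other 97 medians and counts under an alternative kept their value within the limits set. DESeq2 size factors and a prior count of 5 moved none of the members' own ratios. By the authors' TPM, an alternative chosen after seeing the data, the slo-RNAi library was the lowest for 15 of the 32 subunits without a duplicate suffix, beside 26 by CPM. No paired analysis was possible because each group has 1 library, and for the same reason no replicate could be left out. Depth limits the duplicate copies most, with 92 to 958 counts per library, and the spread between larvae is unmeasured for every gene.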
